A study of Mus musculus with 17 samples.

Results

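The complement genes C3, C4b, C1s1, Cfd and Serping1 were followed across 17 single cells of adult mouse back skin. They were chosen by symbol, each symbol had 1 row, and they are 5 of the 8446 rows of the expression table. All cells belonged to 1 group, Tomato+ cells of the genotype Prrx1-CreERT;Tomato on the C57BL/6 strain. In these mice a tamoxifen-inducible Cre is driven by Prrx1, a gene of mesenchymal cells, so that the Tomato label marks cells in which Prrx1 was active around the injections, and their descendants. Tamoxifen was injected daily on 3 days at 2 mg per 30 g of body weight. No untreated mice, other tissue or unlabelled cells were part of the table, and the labels name no animal. The cells were thus read together as 1 sample, with levels and spreads over cells and with no test between conditions.

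Complement is a cascade of plasma proteins that tags and lyses microbes and clears debris. The classical pathway starts when the C1 complex, built from C1q and the proteases C1r and C1s, cuts C4 and C2, and the alternative pathway is carried by C3, factor B and factor D. Both meet at C3, whose cleavage coats the target. Liver makes most of the circulating protein, and fibroblasts and fat cells are known local sources. C3 is the central component, C4b encodes mouse C4, C1s1 encodes a C1s protease, Cfd encodes factor D (adipsin), which is known as a product of fat cells, and Serping1 encodes the C1 inhibitor that blocks C1r and C1s.

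Values were deposited on a log scale and were read as log2(FPKM + 1), where FPKM is a level per length of transcript and per size of library. A gene was counted as detected at FPKM 1. Above a value of 3 the authors' values carried the same sorted series in every cell to within 0.0165. A gene's value there closely set its rank among the 8446 rows of that cell. Such ranks are given because they do not depend on the log base. Near 0 the series differed between cells, and Cfd at 0 ranked 6736 in cell 5 and 7365 in cell 1. The depth of each library is unknown. The library prepared from each cell came from the 3' end of transcripts, whereas FPKM divides by gene length, which lowers long transcripts such as C3 and C4b relative to short ones such as Cfd. The number of genes listed at 0 ranged from 901 to 1766 per cell. Low values were more alike within cells 1 to 5, cells 6 to 14 and cells 15 to 17 than across these sets, which were found from the values themselves and are not groups of the study, so correlations are given with and without them. All 14 fibroblast markers looked at had a row, and their summed level was between 12.46 and 14.90 in every cell.

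In every cell 4369 of the 8446 rows reached FPKM 1, so this threshold was a fixed rank and not a measured limit. Of 8431 symbols 3956 were detected in at least 9 cells. Serping1, C3, C4b and C1s1 were detected in 17 of 17 cells (exact 95% interval 80.5% to 100%, counting error over cells only). Cfd was detected in 7 of 17 (18.4% to 67.1%). At FPKM 10, a value of 3.46, Serping1 and C3 were found in 17 cells, C1s1 in 16, C4b in 15 and Cfd in 5. All 5 genes were detected together in 7 cells, and at FPKM 10 in 4 cells, which were cells 11, 12, 13 and 16.

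Serping1 was the highest on average. It ranged from 7.53 in cell 15 through a median of 10.10 to 12.72 in cell 3, with a mean of 9.95 ± 1.63 (SD over 17 cells). Its place by mean was 72 of 8446 rows, and its rank within a cell ran from 4 in cell 3 to 660 in cell 15. The C1 inhibitor was thus the member with a high value in every cell. Among the 72 genes whose mean lay within 0.5 of that of Serping1, 9 had a larger SD, and their median SD was 0.93.

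C3 ranged from 4.98 in cell 14 through a median of 9.22 to 12.56 in cell 2, with a mean of 9.12 ± 2.26 (SD over 17 cells). In cells 2, 16 and 13 it ranked 5, 8 and 11 of 8446 rows, whereas in cells 8 and 14 it ranked 1772 and 2093. Among the 107 genes whose mean lay within 0.5 of that of C3, only 2 had a larger SD, and their median SD was 0.95. C3 was therefore present in each cell at levels that differed far more than those of genes of like mean.

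C4b spread the most among the members found in every cell. It ranged from 1.94 in cell 14 through a median of 9.74 to 11.58 in cell 16, with a mean of 7.94 ± 3.05 (SD over 17 cells). The values fell into a high part and a low part. In 10 cells they lay between 9.21 and 11.58, and in cells 4, 7, 8, 9, 12, 14 and 15 between 1.94 and 6.81. Of the 168 genes whose mean lay within 0.5 of that of C4b, 1 had a larger SD.

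C1s1 had the narrowest spread for its level. It ranged from 3.35 in cell 8 through a median of 6.94 to 9.13 in cell 3, with a mean of 6.67 ± 1.45 (SD over 17 cells). Of the 302 genes whose mean lay within 0.5 of that of C1s1, 211 had a larger SD.

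Cfd was either high or close to nothing. It stood at 9.70 in cell 16, 8.70 in cell 12, 8.37 in cell 11, 6.79 in cell 8 and 5.91 in cell 13. It stood at 1.37 in cell 17, 1.04 in cell 2, 0.58 in cell 10, 0.41 in cell 3, 0.36 in cell 14, 0.23 in cell 9 and 0.20 in cell 6, and was listed at 0 in cells 1, 4, 5, 7 and 15. No value lay between 1.37 and 5.91. In cell 12 factor D was the highest of the 5 genes. Whether a value of 0 is a failed estimate was not tested. The general transcription factor gene Tbp was also listed at 0 in 7 cells. Of 12 genes of general use looked at, Tbp alone had a 0. The Cfd zeros are not read as absence.

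**Figure D1:**
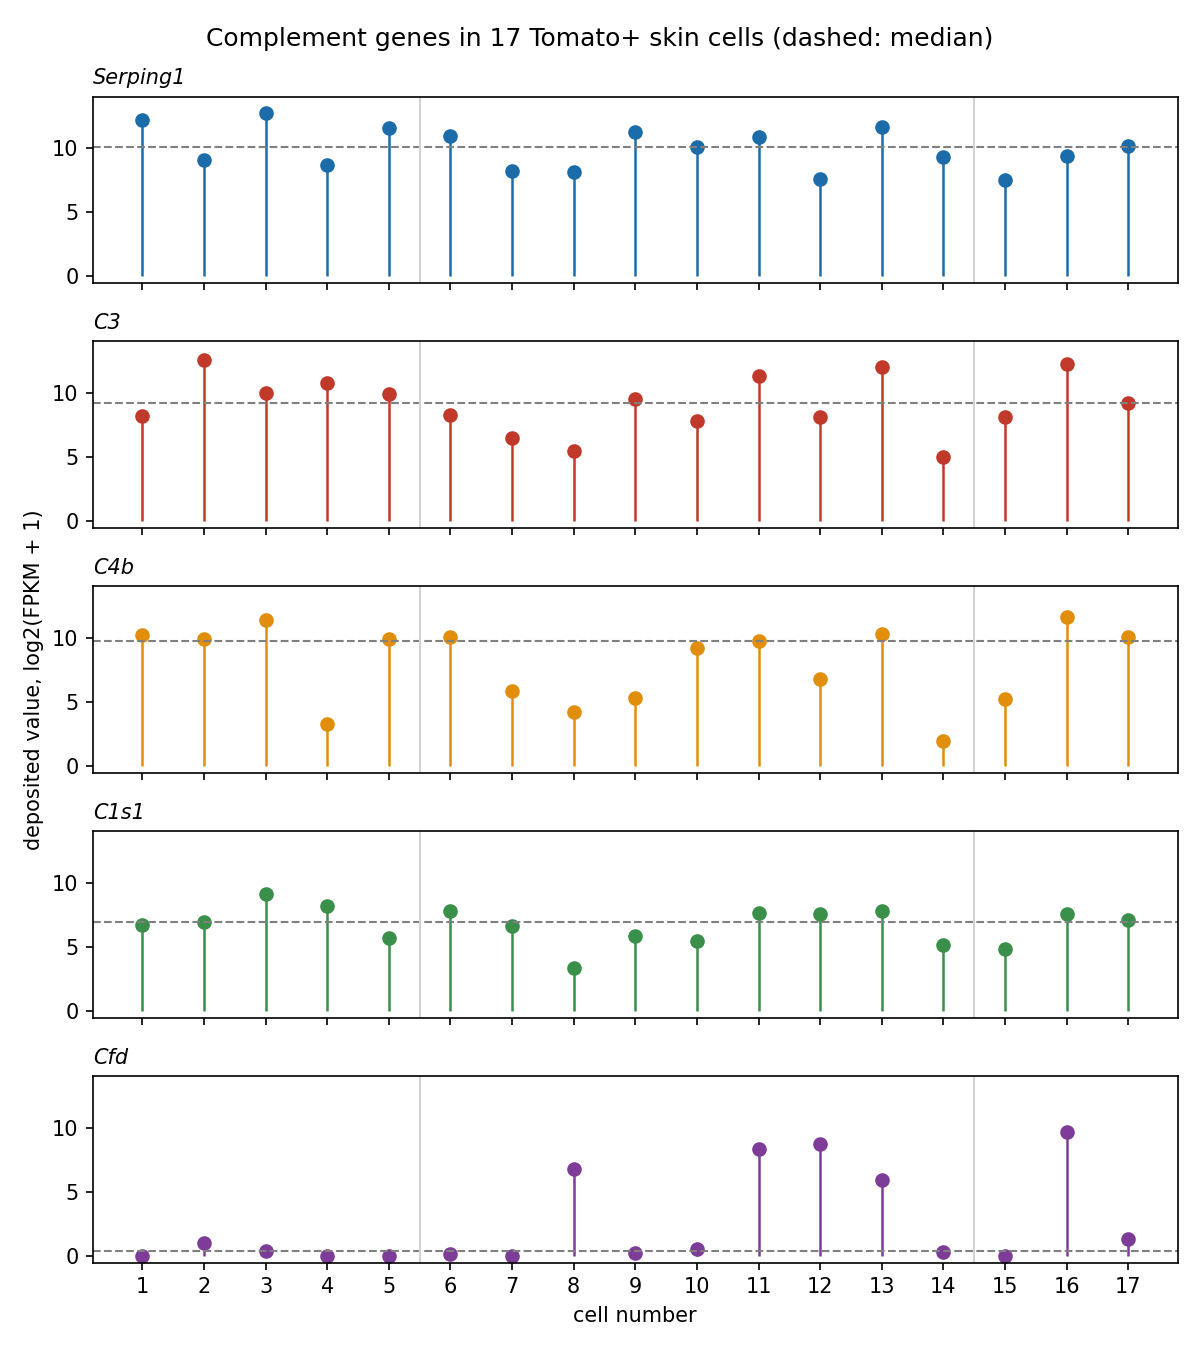
Deposited values, log2(FPKM + 1), of the 5 complement genes in each of 17 cells (x axis, cell number). Each point is 1 cell, the dashed line is the median over cells, and the grey lines part cells 1 to 5, 6 to 14 and 15 to 17. Serping1 is high in every cell, C4b drops to 1.94 in cell 14, and Cfd stands at 5.91 or more in 5 cells and at 1.37 or less in the other 12.

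The order of the mean levels per length was Serping1, C3, C4b, C1s1 and Cfd. Serping1 exceeded C3 in 10 of 17 cells with a mean difference of 0.83 ± 2.30 (SD over cells), C3 exceeded C4b in 11 with 1.18 ± 2.46, and C4b exceeded C1s1 in 12 with 1.27 ± 2.60. Each of these neighbours differed by less than the spread of the difference over cells. C1s1 exceeded Cfd in 13 cells, by 4.11 ± 3.76. By median C4b (9.74) stood above C3 (9.22). When FPKM was multiplied by exonic length to allow for the 3' end libraries, C3 (11.48) stood above Serping1 (11.17) on the log2 scale, so neither gene can be called the higher of the pair.

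The 5 genes lie apart in the genome, on 4 chromosomes (GRCm38, GENCODE M21). C3 is on chromosome 17 from 57203970 to 57228136 and C4b on chromosome 17 from 34728380 to 34743882, in the class III region of the major histocompatibility complex. C1s1 is on chromosome 6 from 124530345 to 124542359, Cfd on chromosome 10 from 79890853 to 79892655 and Serping1 on chromosome 2 from 84765387 to 84775444. RefSeq promoters (GRCm38.p6) were at hand for 3 of the 5 genes, C3, C1s1 and Cfd. These 3 are shown because they were the ones at hand, and no link to the correlations over cells was tested. Each line gives the 250 bases before an annotated start, 5′ to 3′ on the strand of the gene, with matches to the motifs searched in capitals. For C1s1 the first of 2 annotated starts is shown.
C3, chr17:57228137-57228386, minus strand: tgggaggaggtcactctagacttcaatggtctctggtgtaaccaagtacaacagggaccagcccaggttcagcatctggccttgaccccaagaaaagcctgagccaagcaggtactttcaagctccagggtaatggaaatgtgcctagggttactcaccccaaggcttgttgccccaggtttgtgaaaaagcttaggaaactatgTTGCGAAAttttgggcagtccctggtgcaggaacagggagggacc
C1s1, chr6:124542360-124542609, minus strand: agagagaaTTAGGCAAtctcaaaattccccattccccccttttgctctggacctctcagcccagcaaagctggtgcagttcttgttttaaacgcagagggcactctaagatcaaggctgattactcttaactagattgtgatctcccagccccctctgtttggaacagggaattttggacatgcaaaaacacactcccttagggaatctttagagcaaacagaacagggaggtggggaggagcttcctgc
Cfd, chr10:79890603-79890852, plus strand: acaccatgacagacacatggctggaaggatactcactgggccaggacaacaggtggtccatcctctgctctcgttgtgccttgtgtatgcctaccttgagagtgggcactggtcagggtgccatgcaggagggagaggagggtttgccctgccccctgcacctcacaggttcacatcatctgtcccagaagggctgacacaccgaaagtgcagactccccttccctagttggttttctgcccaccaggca

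A set of 7 motifs was searched on both strands, and the share of 32851 distinct RefSeq promoter windows of the same length that held each was counted. The C/EBP letters TTGCNNAA were in 9.56% of windows. The NF-kB letters GGGANNTTC were in 3.23%. The STAT letters TTCNNNGAA were in 7.02%. The letters GAAANNGAA of interferon regulatory factors were in 7.13%. The AP-1 letters TGANTCA were in 6.75%. An E-box, CACGTG, was in 6.02%, and a TATA box, TATAAA, was in 12.4%. The C/EBP letters were in the C3 window, as TTGCGAAA starting at base -45 from the annotated start. They were also in the shown C1s1 window, on the other strand, where the printed letters TTAGGCAA start at base -242. The window of the other C1s1 start and the Cfd window held none of the 7 motifs. No match overlapped another. A match describes the letters only and is neither a site nor a cause.

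Over the 17 cells C3, C4b and C1s1 varied together, and Serping1 varied with C4b and less with C3 and C1s1. In cells 6 to 14 alone Serping1 stood at 0.72 with C3, 0.56 with C4b and 0.38 with C1s1. Its order with C3 and C4b therefore depends on which cells are used. The pairs with Cfd were the lowest when all 17 cells were taken as they stood. Each gene was also set against the 5-gene mean, of which it is a part. There C4b stood at 0.84, C3 at 0.79, C1s1 at 0.67, Cfd at 0.57 and Serping1 at 0.49. The mean Pearson correlation of the 10 pairs was 0.345 (Spearman 0.382), and of the 6 pairs without Cfd 0.515. Over all pairs of the 3956 genes detected in at least 9 cells the median was 0.00 and the quartiles were -0.18 and 0.18. These genes include 4 of the members but not Cfd, and they were not matched to the members in level. All correlations here are over cells that share a preparation and a normalisation, and are descriptions.

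C3 and C1s1 had the highest correlation of the members, 0.63 (Spearman 0.63), followed by C4b with Serping1 (0.61, Spearman 0.65) and C3 with C4b (0.61, Spearman 0.58). C4b and C1s1 were at 0.53, C1s1 and Serping1 at 0.39 and C3 and Serping1 at 0.33. Among all pairs of these 3956 genes 0.761% reached 0.6. With means of the 3 sets of cells subtracted, the first 3 of these correlations were 0.60, 0.66 and 0.55.

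The low cells carried much of the relation with C3. Without cells 8 and 14, the 2 cells farthest from the median of C3, the correlation of C3 with C1s1 was 0.40 and with C4b 0.36. Without cell 4, in which C3 was 10.79 and C4b only 3.29, C3 and C4b reached 0.76 and C4b and C1s1 0.71. C1s1 and Serping1 rested on cells 3 and 8, without which r was 0.08. C4b and Serping1 stood between 0.56 and 0.68 whichever cell was left out.

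The 4 pairs with Cfd lay between -0.21, with Serping1, and 0.26, with C3. With set means subtracted Cfd stood at 0.49 with C3, 0.32 with C4b, 0.28 with C1s1 and -0.07 with Serping1, where C3 with Serping1 was at 0.31 and C1s1 with Serping1 at 0.33. The gap between pairs with and without Cfd therefore depends on the sets of cells. The positive ones leaned on cell 16, which held the highest Cfd and the highest C4b, and without it the correlation of Cfd with C3 was 0.10. Cell 8 ran the other way, with Cfd at 6.79 while C1s1 was at its lowest, 3.35. Without cell 8 the correlation of Cfd with C3 was 0.44 and with C1s1 0.38.

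**Figure D2:**
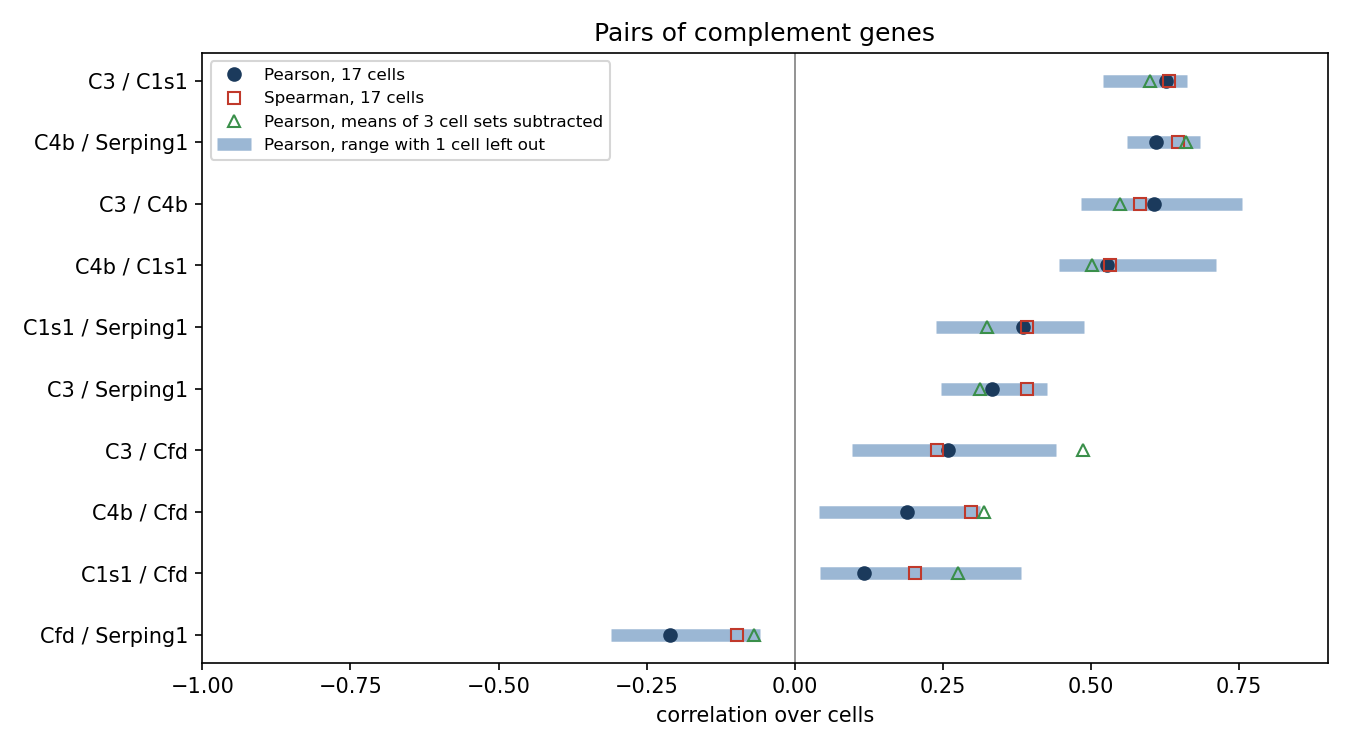
Correlation over cells (x axis) of the 10 pairs of complement genes. Filled points are Pearson r over 17 cells, bars its range when 1 cell is left out, squares Spearman, and triangles Pearson r with means of the 3 cell sets subtracted. The 6 pairs without Cfd lie between 0.33 and 0.63, and the 4 pairs with Cfd between -0.21 and 0.26, but the triangle of C3 with Cfd stands at 0.49.

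By cell, the mean of the 5 genes was highest in cell 16 (10.10), cell 11 (9.59) and cell 13 (9.53), and lowest in cell 14 (4.35) and cell 15 (5.15). Without Cfd the highest was cell 3 (10.81), then cell 13 (10.44) and cell 16 (10.20), and the lowest were cell 8 (5.31) and cell 14 (5.35). C3 was the highest member in 6 cells, Serping1 in 10 and Cfd in 1. The correlation of the 5-gene mean with the number of genes listed at 0 was 0.18.

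Of 50 further complement genes listed, 17 had a row, and the rest are not analysed here. The latter include C1qa, C1qb and C1qc and all 8 receptor genes listed. The classical and lectin pathway list had 7 genes with a row. C1ra, a C1r protease, was detected in 17 cells (mean 5.96 ± 1.88), C1rb in 16 (4.79 ± 1.85), C1s2 in 16 (3.63 ± 1.59), C4a in 16 (6.62 ± 3.12) and C2, the partner of C4 in the C3 convertase, in 12, between 0.26 and 9.83. The lectin receptor gene Colec12 was detected in 9 cells and C1rl in 3. Cfb, which encodes factor B, was detected in 15 cells (mean 5.97 ± 2.79), and C7, of the lytic complex, in 8 with a highest value of 7.53 in cell 13.

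C4b and its copy C4a varied together at 0.98 (Spearman 0.95), with C4b higher in 16 of 17 cells by 1.32 ± 0.67 (SD over cells). C1s1 and C1s2 stood at 0.94 (Spearman 0.93), with C1s1 higher in all 17 cells by 3.04 ± 0.55. The copies share sequence, so the rows are not certain to be separate measurements. Of all stretches of 50 bases in the C4b transcript 35.2% also occur in C4a (38.1% within its last 500 bases). Of those in C1s1 24.3% occur in C1s2 (18.0% within its last 500 bases). No such stretch of C3, Cfd or Serping1 was found in another annotated gene. How reads that match both copies were shared out is not given in the sources used here.

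C1ra and C1rb, the proteases that activate C1s, were the genes most like C4b after C4a, at 0.83 and 0.82 (Spearman 0.83 and 0.70). They lie on chromosome 6, C4b on chromosome 17. They are copies too, with 48.0% of the stretches of C1ra found in C1rb, and correlated with each other at 0.97. With set means subtracted these were 0.90 and 0.88. C1s1 sits 6.90 kb from C1ra and correlated with it at 0.53 over 17 cells, less than with C3. In cells 6 to 14 alone C1s1 stood at 0.83 with C1ra and 0.70 with C3, the reverse order. In the region around C4b, Cfb correlated with it at 0.69 and C2 at 0.45. Serping1 correlated with C2 at 0.64, with C1ra at 0.63, with C7 at 0.63 and with Cfb at 0.61.

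**Figure D3:**
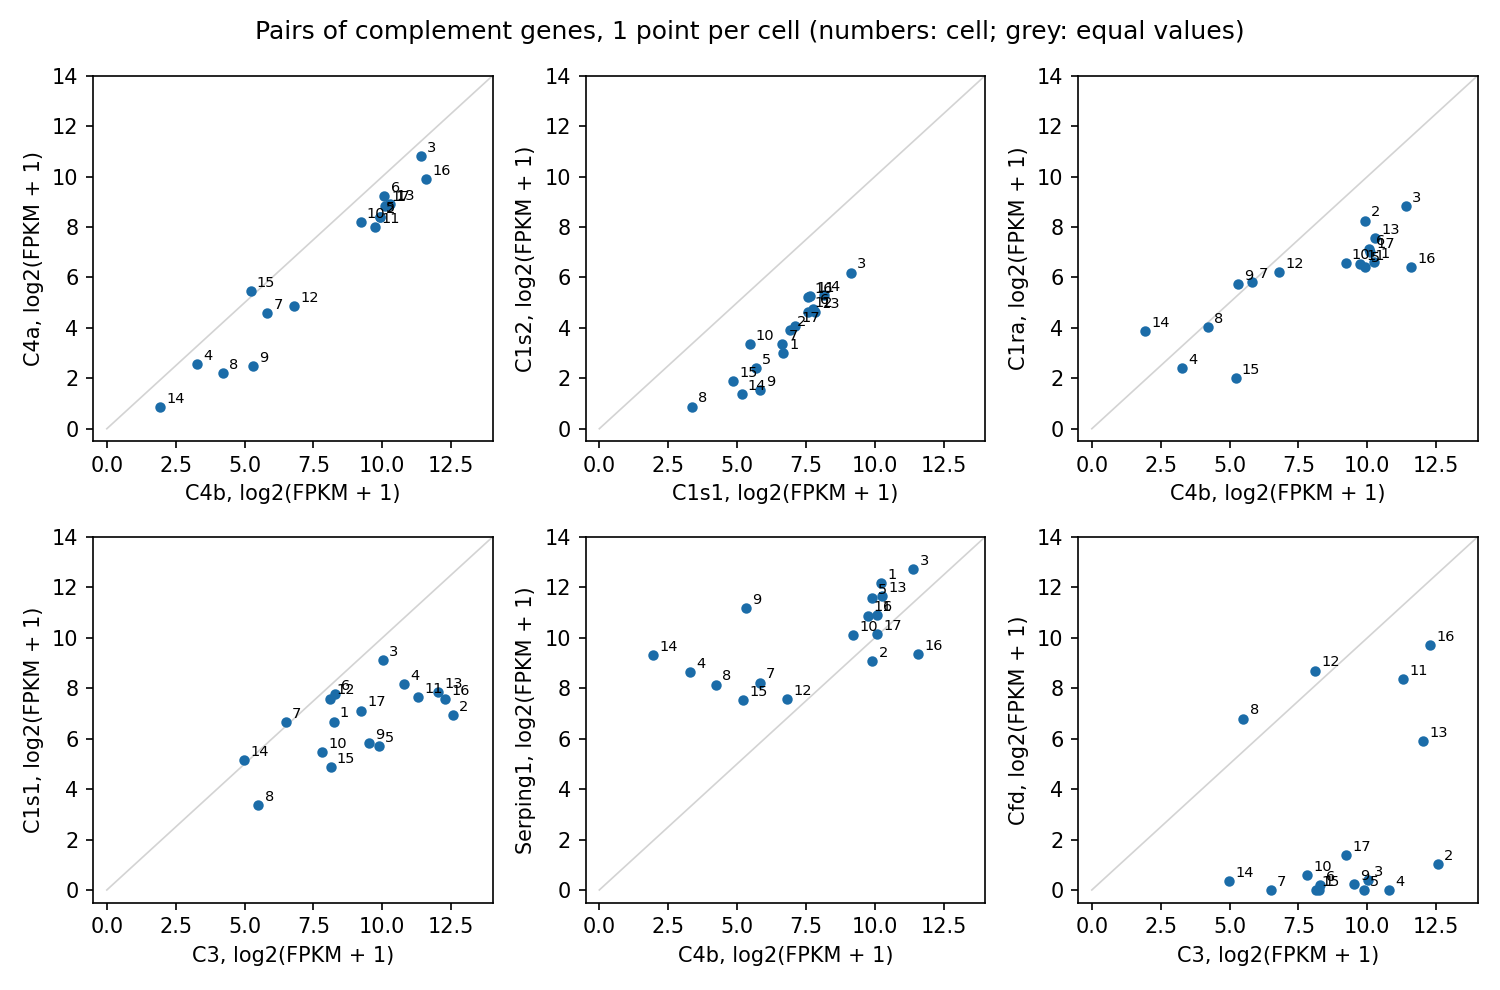
Deposited values, log2(FPKM + 1), of pairs of complement genes, 1 point per cell labelled by cell number, with a grey line of equal values. C4b with C4a and C1s1 with C1s2 fall along a line (r 0.98 and 0.94), C4b with C1ra follows at 0.83, and Cfd against C3 splits into 5 cells at 5.91 or more and 12 at 1.37 or less.

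The regulators of complement on the cell surface stood near 0 or below against the 5-gene mean, except Cd59a and Cd59b (0.11 and 0.16). Cd55, which speeds decay of the C3 convertase, was detected in 17 cells (mean 6.32 ± 2.10) and correlated with the 5-gene mean at -0.19. Cr1l, which encodes the rodent regulator Crry, was detected in 16 (mean 6.48 ± 2.23) and correlated at -0.19, and with C3 at -0.58. With C3 it stood at -0.47 with set means subtracted and at -0.15 in cells 6 to 14 alone. In cell 2, where C3 was highest, Cr1l was at 0.60. In cells 16 and 13, next in C3, it was at 4.15 and 7.17, where its median over cells was 7.17. In cell 14, lowest in C3, Cr1l was at 7.28. In cell 8, where C1s1 was lowest and C3 among the lowest, Cr1l was at its highest, 9.29. The copies Cd59a and Cd59b, inhibitors of the lytic complex, were detected in 6 and 4 cells, and Cd55b in 8.

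Among the soluble regulators, Clu (clusterin) was detected in 13 cells, at most 5.11, and correlated with the 5-gene mean at 0.39 (Spearman 0.46), with C3 at 0.52 and with Serping1 at 0.48. Vtn (vitronectin) was detected in 9 cells and correlated at 0.04. C1qbp, which encodes a mitochondrial protein that also binds C1q, was detected in 15 cells and correlated with the 5-gene mean at -0.07.

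**Figure D4:**
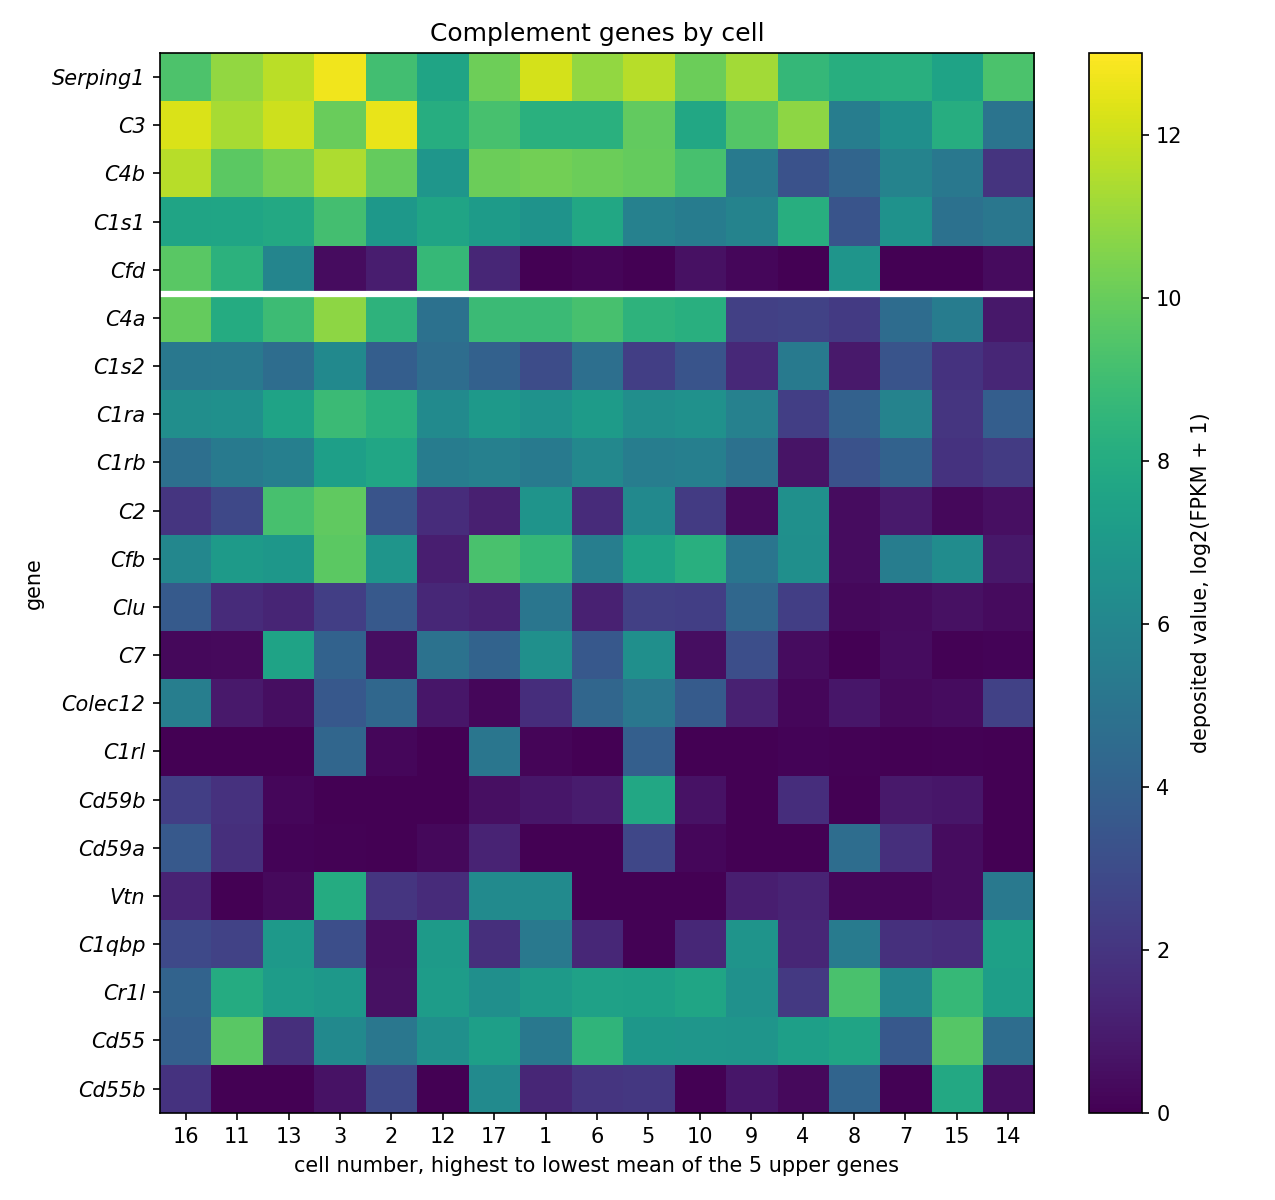
Deposited values, log2(FPKM + 1), of the 5 complement genes (above the white line) and 17 other complement genes (below it, from highest to lowest correlation with the 5-gene mean) in 17 cells, ordered from highest 5-gene mean, 10.10 in cell 16, to lowest, 4.35 in cell 14. C4a, C1s2 and C1ra lead the lower part, and Cd55b, Cd55 and Cr1l end it.

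Beside lists of other genes the 5-gene mean stood closest to the classical and lectin genes. The mean of 6 such genes, detected in at least 9 cells, correlated with the 5-gene mean at 0.80 (Spearman 0.77). That list holds C4a and C1s2 and so repeats the members in part. Next was a list of 16 acute phase and NF-kB genes at 0.57 (Spearman 0.52), in which 4 genes reached r of 0.5 with the 5-gene mean. Of all 3952 other genes detected in at least 9 cells, 4.23% did. The median r was 0.33 for the 16 genes and -0.02 for the 3952. It was 0.44 for a list of 3 fat cell genes, so the second place depends on the measure. Cebpb, a transcription factor of the acute phase response, correlated at 0.54 and with C3 alone at 0.69, and Il1r1, the interleukin-1 receptor gene, at 0.54. The lowest of the acute phase list was Tnfrsf1a, the TNF receptor gene, at -0.13. For Cfd alone the median r was 0.09 with the classical and lectin genes, -0.01 with the acute phase genes and 0.17 with the collagens.

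Chemokine genes stood at 0.44 as a list mean, with Cxcl14 (0.51) and Cxcl13 (0.48) highest and Ccl2, the monocyte chemokine, lowest (-0.15). Their median r was 0.17 over 12 genes, of which 1 reached 0.5. The list of 14 interferon response and antigen presentation genes stood at -0.11. With the 24 genes detected in at least 3 cells it stood at 0.07, so its sign depends on the filter. Among the 14, Tapbp, which loads peptides on MHC class I, was highest at 0.43 and Irf1 next at 0.31. Ifnar2, a type I interferon receptor subunit, was the lowest of them at -0.63. Ifnar2 correlated with Cfd at -0.76.

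Matrix genes as a group stood near 0. The 15 collagens stood at -0.02 as a list mean, with Col16a1 at 0.36, Col1a1 at 0.35 and Col5a3 at -0.43. The 14 fibroblast markers stood at 0.20, with Fbln1 (fibulin 1) at 0.58, Mmp2 at 0.42 and Mfap5 lowest at -0.44. The 13 fascia and adventitia genes stood at -0.18, with Gfpt2 at 0.30, Ly6c1 at 0.06 and Cd248 at -0.50. In cells 6 to 14 alone the collagens stood at -0.29, the fibroblast markers at -0.11 and the fascia genes at 0.29, so the sign of the last 2 depends on which cells are used.

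**Figure D5:**
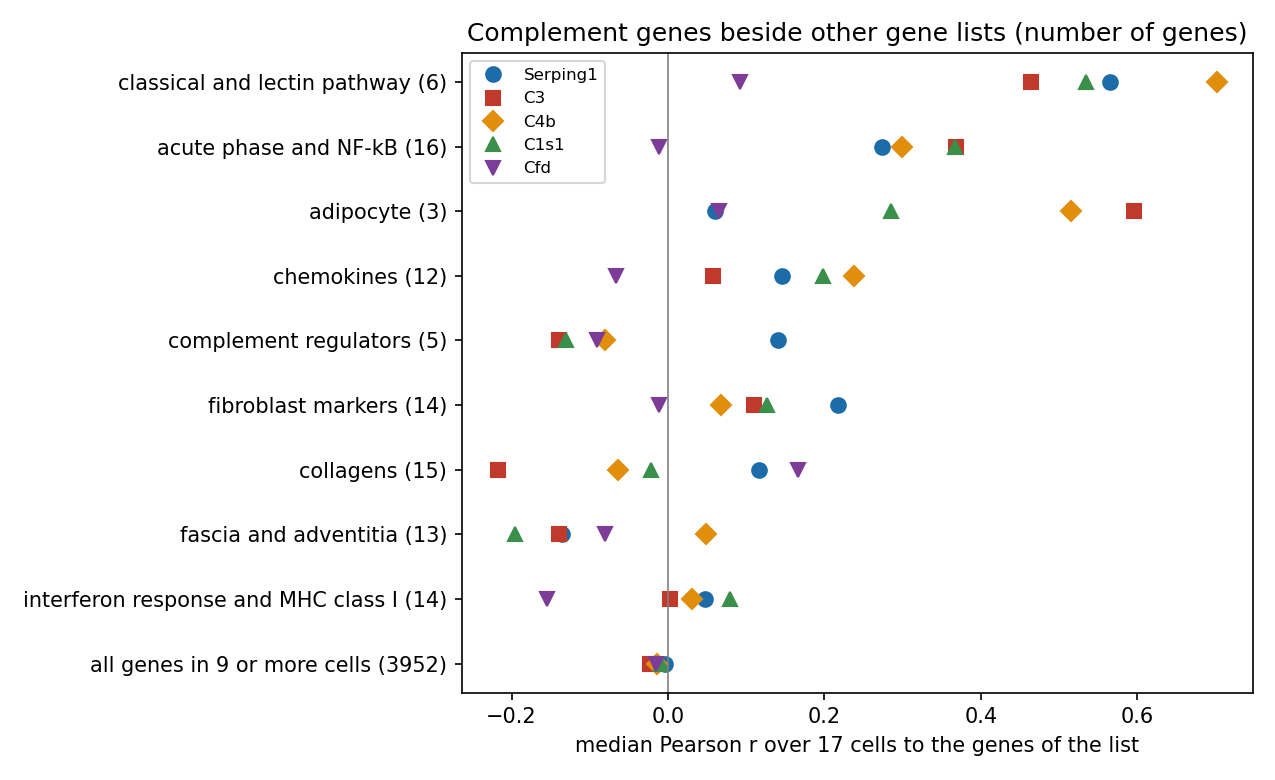
Median Pearson r over 17 cells (x axis) between each of the 5 complement genes and the genes of 9 lists and of all genes detected in at least 9 cells (y axis, number of genes in brackets). For C4b the classical and lectin genes stand at 0.70, and for Cfd at 0.09, and all 5 genes stand near 0 against all genes.

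Cfd is a known fat cell product, so fat cell genes were set beside it. Of 12 adipocyte markers 6 had a row, and 3 of them reached FPKM 10 in some cell. Fabp4, a fatty acid carrier, was detected in 12 cells and correlated with Cfd at 0.12, but with C3 at 0.71 and with C4b at 0.65. Lpl (lipoprotein lipase) was detected in 17 cells and correlated with Cfd at 0.07, and Car3 (carbonic anhydrase 3) in 6 with 0.02. Pparg, a nuclear receptor that drives adipogenesis, was detected only in cells 16 and 11, at 2.56 and 1.02, which are among the 5 cells with high Cfd. It correlated with Cfd at 0.56 and with the 5-gene mean at 0.51, and stayed under FPKM 10 in every cell. These values rest on 2 cells. Of the other fat cell genes under FPKM 10, Cd36 correlated with Cfd at 0.05 and Pnpla2, detected in 4 cells, at 0.03. As a list mean the 3 genes found in at least 9 cells, Fabp4, Lpl and the fatty acid transporter gene Cd36, correlated with the 5-gene mean at 0.50, Fabp4 alone at 0.62, Cd36 at 0.44 and Lpl at 0.18. The 5 cells with Cfd at 5.91 or more had Fabp4 at 6.52 in cell 16, 6.03 in cell 13, 4.75 in cell 11, 2.83 in cell 12 and 0 in cell 8. High factor D and high Fabp4 thus met in some cells and not in others. The summed level of the 6 genes ran from 1.38 to 8.58 and correlated with the 5-gene mean at 0.44. Its part in the result was not tested.

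Few genes that mark other cells had a row. Of 13 macrophage and dendritic markers only Csf1r had a row, found in 5 cells with a highest value of 4.69 in cell 1, and it correlated with C4b at 0.37 and with Cfd at -0.09. The summed levels of 3 endothelial, 6 mural, 2 keratinocyte and 3 Schwann or melanocyte genes correlated with the 5-gene mean at 0.42, 0.00, 0.02 and 0.24. They reached at most 6.24, 6.55, 5.63 and 6.92. The markers that reached FPKM 10 in some cell were Tek, Plvap, Esam, Acta2, Myl9, Higd1b, Kcnj8, Krt10, Krt79, Mbp, S100b and Mitf, besides Fabp4, Lpl, Car3 and Csf1r. Members of 1 list differed in sign. Among endothelial genes Esam, found in 3 cells, correlated with the 5-gene mean at 0.55 and Tek at -0.18. Among mural genes Higd1b, found in 7 cells, stood at 0.61, Acta2 at -0.25 and Myl9 at -0.28. Mbp, found in 12 cells, stood at 0.57, S100b at 0.03 and Krt10 at -0.22. Their part in the result was not tested.

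The genes most like each member were found over the 17 cells among all genes detected in at least 9. For C3 these were Vegfa (0.81), Diaph1 (0.76) and Amd2 (0.75). For C1s1 they were C1s2 (0.94), Efs (0.72) and Plac8 (0.71). For Cfd they were Tial1 (0.87), Strn3 (0.83) and Atg12 (0.83), and for Serping1 Idh3b (0.78), Exosc3 (0.78) and Arhgdib (0.77). Complement genes led the ranking for C4b and C1s1, and in both cases the first was the copy of the gene. The 10 genes most like the 5-gene mean were C4a (0.77), Plac8 (0.75), Galnt1 (0.75), Podn (0.74), Tlk2 (0.74), C1s2 (0.73), Aldh2 (0.71), Egfr (0.70), Ldhb (0.70) and C1ra (0.70).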

How the data were processed

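RNA of 17 single cells was measured. Per the labels' protocols, back skin was digested with elastase and collagenase, Tomato+ cells were sorted and picked singly, and libraries were made with a SMART-Seq v4 3' end kit and Nextera XT. TopHat2, Cufflinks and GRCm38 are named in the submitters' processing notes, with no version or setting. The authors deposited log-scale values, read as log2(FPKM + 1). The base and constant are not stated, and FPKM thresholds rest on that reading. Sorted values differed between cells by at most 0.0165 above 3, the form that quantile normalisation gives. Where a symbol had several rows, the one of highest mean was used.

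Correlations were computed on deposited values with Python 3.11.15, numpy 2.4.6, pandas 2.3.3 and scipy 1.17.1, and figures with matplotlib 3.10.9. The correlation step was tested on simulated data. List means used genes detected in at least 9 cells. Named genes are the members, other complement genes with a row, from each list the 2 genes with the highest and the 1 with the lowest correlation to the 5-gene mean, the 3 genes most like each member, the 10 most like their mean, and cell type markers at FPKM 10 in any cell. Pparg and Pnpla2 meet none of these rules and are given besides. Tbp was named after its values were seen, as were pairs of complement genes. One list member is not reported here. The members and lists were chosen with earlier results of these data known. Depth is unknown, so no detection limit is given, and the 17 cells set the precision.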

Additional observations from a re-analysis of the deposited data

How the results depend on the processing

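No paired analysis was possible because there is 1 group. The mean pairwise correlation of 0.345 kept its sign under every alternative run but not its size. It was lowest, 0.252, without C4b and highest, 0.515, without Cfd. It was 0.397 with the means of the 3 cell sets subtracted, 0.440 in cells 6 to 14, 0.483 without cells 1 to 5, 0.284 without cells 15 to 17, and 0.304 to 0.387 when 1 cell was left out. Summing C4b with C4a and C1s1 with C1s2 gave 0.343, a setting chosen after seeing the data. With any value above the lowest counted, 12 cells had all 5 genes and 12 had Cfd, and with FPKM 10 asked for 4 had all 5, where FPKM 1 gave 7. These counts differ because the threshold does. Of the 10 pairwise orders of the mean levels 9 held by median and 9 after multiplication by gene length. In cells 6 to 14 the list correlations were -0.290 for collagens, -0.114 for fibroblast markers and 0.294 for fascia and adventitia genes, and the cause was not tested. With 1 cell left out, which can move a mean over 17 cells only a little, the means ran from 8.91 to 9.38 for C3, 7.72 to 8.32 for C4b, 6.52 to 6.88 for C1s1, 2.12 to 2.73 for Cfd and 9.78 to 10.11 for Serping1.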
